A study of Mus musculus with 4 samples.

Results

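The genes of cholesterol and fatty acid synthesis were examined in RNA of regulatory T cells (Treg cells) from mouse spleen. They comprise 31 genes chosen by name, of 20837 in the deposited count table: 7 enzymes of the mevalonate and isoprenoid steps, 10 enzymes of the squalene and sterol steps, 5 genes that control the SREBP transcription factors, 8 genes of fatty acid synthesis, elongation and desaturation, and the sterol transfer gene Stard4. All 31 were in the table and all 31 passed the filter on low counts. The study sequenced 4 libraries. In 2 libraries, labelled cKO, the cells came from mice of genotype Foxp3YFP-CreKmt2dfl/fl, in which a Cre recombinase expressed from Foxp3 deletes loxP-flanked Kmt2d in cells that express Foxp3. In the other 2, labelled WT, they came from mice of genotype Foxp3YFP-CreKmt2d+/+. Mice of both groups thus carry the Foxp3 YFP-Cre allele. Kmt2d encodes a methyltransferase of lysine 4 on histone H3, a mark of enhancers and promoters. The labels name no strain. Their extraction text is about cultured macrophages of an unrelated knockout and goes against the fields for tissue, cells and genotype, which were followed here. No label says that libraries of one group are from different animals. The p-values therefore cover only the variation among these 4 libraries, possibly technical.

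Cells make cholesterol from acetyl-CoA through mevalonate, squalene and lanosterol, and the intermediates also feed isoprenoids that anchor signalling proteins to membranes. When sterols in the endoplasmic reticulum are low, the escort protein SCAP carries SREBP2 (gene Srebf2) and SREBP1 (Srebf1) to the Golgi, where proteases release the active factors. When sterols are plentiful, INSIG1 and INSIG2 hold SCAP back. SREBP2 mainly drives the sterol genes and SREBP1 mainly the fatty acid genes, and Insig1 is itself a target, so that these transcripts usually move together. In T cells the mevalonate pathway is known to be needed for proliferation and for the suppressive function of Treg cells.

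Kmt2d itself, counted over the whole gene, measured 836 and 793 CPM in cKO 1 and 2, against 721 and 704 CPM in WT 1 and 2 (log2 fold change 0.19, SE 0.052, edgeR adjusted p = 0.0375). CPM are read counts scaled to library size (TMM method). A whole-gene count may contain reads from exons that Cre leaves in place, and it is no check of the labels. Defining T cell and Treg genes were present in all 4 libraries: Cd3e had 392 and 367 CPM in cKO, against 378 and 404 CPM in WT, and Foxp3 had 170 and 180 CPM in cKO, against 278 and 250 CPM in WT. The macrophage receptor gene Csf1r was present too, with 134 and 84.1 CPM in cKO, against 92.0 and 151 CPM in WT. Over all tested genes 16.5% rose and 15.1% fell. Of 12 pan T cell markers 9 fell (75%), with summed CPM of 4961 to 5266 in cKO, against 6252 to 6424 in WT, and a list median of -0.33 on the log2 scale. Of 9 Treg markers 5 fell (55.6%) and 1 rose (11.1%; summed CPM 2464 to 3066 in cKO, against 2875 to 3712 in WT, median -0.54). Of 12 macrophage and monocyte markers 2 rose, Lyz2 and Itgam, a share of 16.7% and close to that of all tested genes. Lyz2 alone had 584 and 544 CPM in cKO 1 and 2, against 261 and 286 CPM in WT 1 and 2. It made up a large part of the summed CPM of the 12 markers, 897 to 1073 in cKO, against 643 to 878 in WT. The list median of the 12 markers was -0.28. Of their log2 fold changes 9 were negative. In the main fit 0 of them fell, while 3 did with DESeq2 and 4 with no filter on low counts. Of 14 proliferation genes 13 rose (92.9%, median 0.88). Total counts were 28442416 to 35560491 per library.

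The sequences of 4 promoters are shown because SREBP factors act there together with NF-Y and Sp1. RefSeq windows (build GRCm38.p6, 250 bases before to 50 bases after an annotated start) were matched by gene number for 24 of the 31 genes, in 32 windows. The 7 genes without a window, which were not searched, are Fads1, Fdft1, Fdps, Scd1, Scd2, Sqle and Stard4. Hmgcs1 was the only one of the 24 with a match to TCACNCCAC, a sterol regulatory element type motif. The other 3 belong to Insig1, Lss and Srebf2, whose values are described below, and were picked after those values were seen. The windows are chr13:119690101-119690400 (plus strand) for Hmgcs1, chr5:28071162-28071461 (plus strand) for Insig1, chr10:76531355-76531654 (plus strand) for Lss and chr15:82147019-82147318 (plus strand) for Srebf2. Capitals mark matches on either strand to TCACNCCAC, CCAAT (the NF-Y box), CACGTG (an E-box) or GGGCGG (the Sp1 box).
Hmgcs1: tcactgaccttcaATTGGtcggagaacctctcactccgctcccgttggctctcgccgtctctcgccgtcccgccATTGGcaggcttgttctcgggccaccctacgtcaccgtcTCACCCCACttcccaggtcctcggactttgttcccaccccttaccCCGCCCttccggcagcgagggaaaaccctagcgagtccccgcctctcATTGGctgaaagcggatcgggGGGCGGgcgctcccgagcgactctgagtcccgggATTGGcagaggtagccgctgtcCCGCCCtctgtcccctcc
Insig1: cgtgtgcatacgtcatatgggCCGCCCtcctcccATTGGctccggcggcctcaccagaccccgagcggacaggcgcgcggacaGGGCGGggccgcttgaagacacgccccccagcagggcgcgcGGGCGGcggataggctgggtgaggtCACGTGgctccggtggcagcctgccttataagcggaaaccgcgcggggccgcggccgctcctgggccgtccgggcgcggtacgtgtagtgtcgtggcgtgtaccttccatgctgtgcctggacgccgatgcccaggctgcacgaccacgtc
Lss: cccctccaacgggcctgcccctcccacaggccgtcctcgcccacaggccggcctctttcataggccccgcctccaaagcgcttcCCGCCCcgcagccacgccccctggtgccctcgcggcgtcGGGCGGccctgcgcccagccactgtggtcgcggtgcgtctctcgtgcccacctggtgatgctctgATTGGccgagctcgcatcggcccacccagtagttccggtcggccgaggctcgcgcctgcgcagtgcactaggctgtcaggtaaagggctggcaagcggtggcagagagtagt
Srebf2: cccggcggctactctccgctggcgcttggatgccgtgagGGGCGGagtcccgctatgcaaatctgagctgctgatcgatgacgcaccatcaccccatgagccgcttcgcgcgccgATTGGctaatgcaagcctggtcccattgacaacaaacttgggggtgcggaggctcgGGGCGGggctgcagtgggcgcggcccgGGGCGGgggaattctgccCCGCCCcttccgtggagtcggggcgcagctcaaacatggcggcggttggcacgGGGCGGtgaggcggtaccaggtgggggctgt
In Hmgcs1, the TCACNCCAC match begins 137 bases before the start, beside 4 CCAAT and 3 GGGCGG matches. CCAAT was found in 62.5% of the 32 windows and in 37.4% of all 32851 windows of the table, and GGGCGG in 75% and 35.7%. CACGTG was found in 18.8% of the 32 windows and in 7.15% of all, and TCACNCCAC in 3.12% and 1.24%. A match describes letters in the window and shows neither binding nor use. A window without a match may still hold a variant of the motif.

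Srebf2, Lss and Scd2 fell, Fads2 rose, and 27 did not pass (edgeR quasi-likelihood test, Benjamini-Hochberg adjusted p under 0.05 over all 13861 genes tested). The 4 called genes are 12.9% of the 31, against 31.6% of all tested genes. Those that fell are 9.68% of the 31, against 15.1% of all tested genes, and the 1 that rose is 3.23%, against 16.5%. The median log2 fold change was -0.049 for the 31 genes and 0.000305 for all tested genes, while the means were 0.027 and 0.048. The median standard error (SE) was 0.087 for the 31 genes and 0.091 for all tested genes. Of the 27 genes that did not pass, 23 had a 95% interval of the fold change inside 1.5-fold in either direction, and 14 inside 1.25-fold, so that 13 reached beyond 1.25-fold. Cyp51, Hsd17b7, Insig1 and Scd1 reached beyond 1.5-fold.

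**Figure D1:**
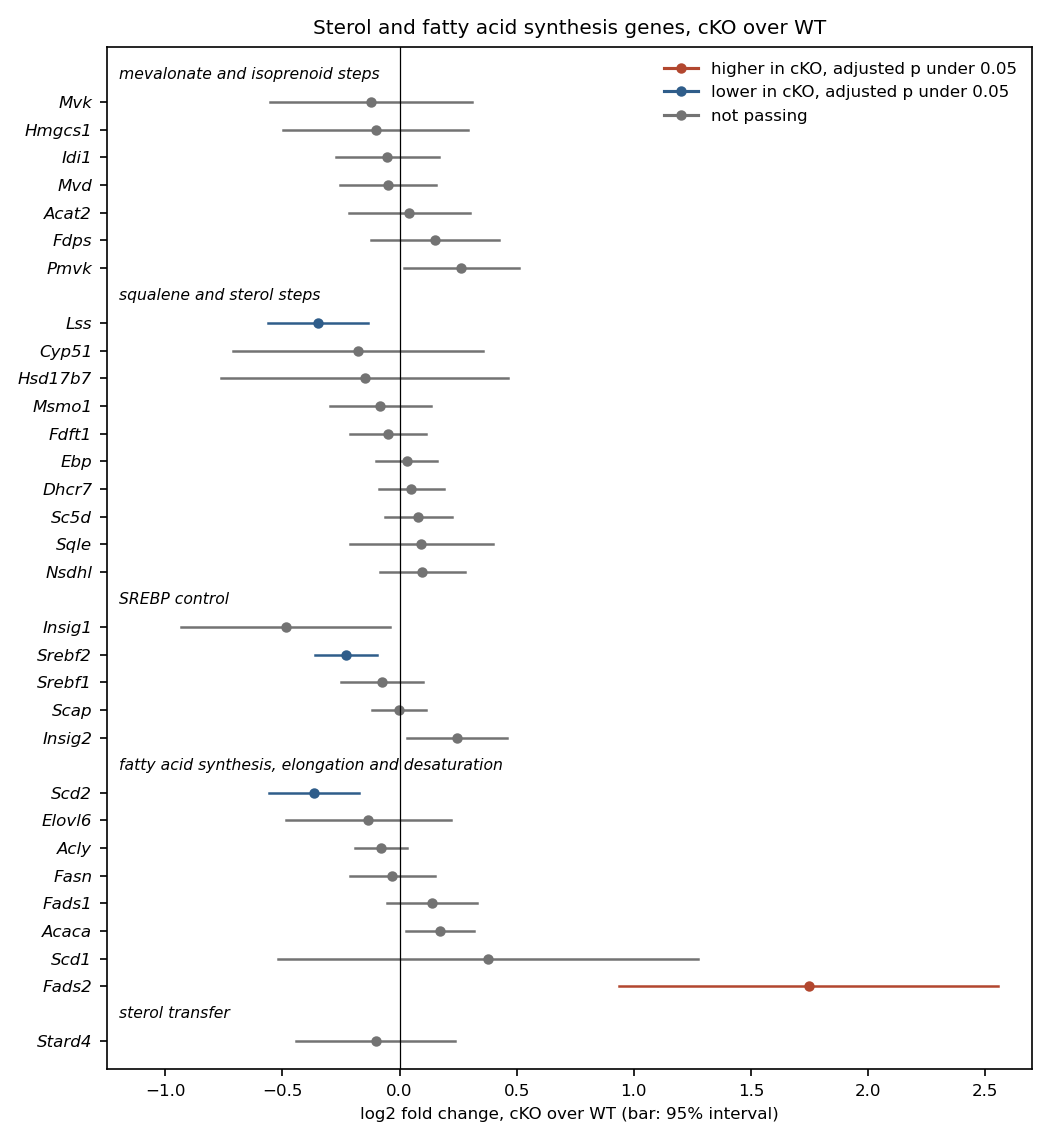
Log2 fold change of each of the 31 genes, cKO over WT, with its 95% interval, grouped by role. Insig1 has the lowest value, -0.49, and did not pass. Of the called genes, Srebf2, Lss and Scd2 lie below 0 and Fads2, at 1.75, lies far above.

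Divided by the length of the principal transcript, the levels were highest for Acly, with 65.1 CPM per kilobase in cKO and 68.8 in WT, and for Srebf2, with 53.4 in cKO and 62.7 in WT. They were lowest for Fads2, with 0.611 CPM per kilobase in cKO and 0.184 in WT. Among the enzymes of sterol synthesis the order ran from Ebp, with 26.3 CPM per kilobase in cKO and 25.8 in WT, to Hsd17b7, with 2.56 in cKO and 2.84 in WT.

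In the mevalonate and isoprenoid steps, none of 7 genes passed (edgeR adjusted p, and 0 also by DESeq2 and limma-voom), and 1, Pmvk, had an unadjusted p under 0.05. Their log2 fold changes ran from -0.12 for Mvk to 0.26 for Pmvk, with a median of -0.049 and a mean of 0.019. Pmvk, the phosphomevalonate kinase gene, measured 13.2 and 14.4 CPM in cKO 1 and 2, against 10.9 and 12.04 CPM in WT 1 and 2, a log2 fold change of 0.26 (SE 0.099, edgeR adjusted p = 0.0972). Both of its cKO libraries were above both WT libraries, as for 35.1% of all tested genes. Hmgcs1, which encodes HMG-CoA synthase and whose promoter is shown above, had 44.7 and 59.1 CPM in cKO, against 62.1 and 49.5 CPM in WT. Its groups overlapped, with the highest and the second lowest value both in WT. Fdps, which makes farnesyl diphosphate, had 29.0 and 36.2 CPM in cKO, against 29.7 and 29.1 CPM in WT (log2 fold change 0.15, SE 0.11, edgeR adjusted p = 0.371). Its cKO libraries lay on either side of the WT pair. Acat2 (the cytosolic acetoacetyl-CoA thiolase), Mvk (mevalonate kinase), Mvd (the decarboxylase) and Idi1 (the isomerase) had log2 fold changes of 0.042, -0.12, -0.049 and -0.053. Of the distinct 50-base stretches in transcripts of Acat2, 39.1% also occur in another gene, mostly Acat3. The shares were 26.2% for Fdps and 17.7% for Idi1, so that counts of these 3 genes are uncertain. Fdps also shares 1124 exonic bases on its own strand with Gm43738. Exons of Hmgcs1 overlap those of Gm48342 on the opposite strand over 557 bases, and those of Idi1 overlap Gm48574 over 323.

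In the squalene and sterol steps, Lss fell and the other 9 genes did not pass. Lss encodes lanosterol synthase, which closes the sterol rings. It measured 13.0 and 14.3 CPM in cKO, against 17.8 and 17.1 CPM in WT, a log2 fold change of -0.35 (SE 0.087, edgeR adjusted p = 0.0291). Both cKO libraries were below both WT libraries, as for 30.9% of all tested genes. The call is weak: DESeq2 gave an adjusted p of 0.124, and edgeR with the replicate number as a block gave 0.107. Without 1 library the log2 fold change ran from -0.42 to -0.29. The call ended in each of these fits, which leave 1 library in a group and called fewer genes in all. The annotated exons of Lss overlap those of 4930483K19Rik on the opposite strand over 381 bases, and reads of the pair cannot be told apart if strand was not used.

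The other 9 ranged from -0.18 for Cyp51 to 0.096 for Nsdhl on the log2 scale. Fdft1 (squalene synthase), Sqle (squalene epoxidase), Ebp (a sterol isomerase) and Dhcr7 (the reductase of the last step) had log2 fold changes of -0.049, 0.092, 0.029 and 0.050. For Ebp the 95% interval ran from -0.099 to 0.16 and for Dhcr7 from -0.090 to 0.19. Sc5d, a sterol desaturase gene, had 40.6 and 41.8 CPM in cKO, against 40.0 and 37.9 CPM in WT (log2 fold change 0.080, SE 0.058, edgeR adjusted p = 0.364). Msmo1, Nsdhl and Hsd17b7, whose products act in the steps that remove methyl groups from the sterol ring, had log2 fold changes of -0.082, 0.096 and -0.15. Cyp51, the lanosterol demethylase gene, had 41.6 and 60.0 CPM in cKO, against 67.2 and 47.8 CPM in WT. Its libraries differed more within each group than the group means did. Exons on the opposite strand overlap those of Fdft1 over 774 bases (Ctsb) and those of Cyp51 over 166 bases (Akap9), and 9.38% of the 50-base stretches of Fdft1 also occur in another gene.

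Among the 5 SREBP control genes, Srebf2 fell. It had 266 and 277 CPM in cKO, against 327 and 310 CPM in WT, a log2 fold change of -0.23 (SE 0.053, edgeR adjusted p = 0.0238). The groups did not overlap. The call held without WT 2 (edgeR adjusted p = 0.0449) and ended without cKO 1 (0.140), cKO 2 (0.0704) or WT 1 (0.116). Srebf1, which encodes SREBP1, had 77.2 and 76.1 CPM in cKO, against 75.7 and 85.7 CPM in WT (log2 fold change -0.075, SE 0.071, edgeR adjusted p = 0.504), and its groups overlapped. Scap measured 99.6 and 97.7 CPM in cKO, against 98.7 and 99.0 CPM in WT (log2 fold change -0.0026, SE 0.047, edgeR adjusted p = 0.978). Its 95% interval ran from -0.12 to 0.11 on the log2 scale. Exons of Scap overlap those of 5830462I19Rik on the opposite strand over 985 bases, and those of Srebf1 overlap Rai1 over 109 bases.

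The INSIG genes had log2 fold changes of opposite sign, and neither passed. Insig1 had 48.4 and 66.5 CPM in cKO, against 91.1 and 70.0 CPM in WT, a log2 fold change of -0.49 (SE 0.18, edgeR adjusted p = 0.0947). Both cKO libraries were below both WT libraries, with the nearest values 3.50 CPM apart. This call depended on the test and the libraries. It passed by DESeq2 (adjusted p = 0.0137), with no filter on low counts (edgeR adjusted p = 0.00219) and without cKO 2 (edgeR adjusted p = 0.0230, log2 fold change -0.74), and over 11 other settings the adjusted p ran from 0.00219 to 0.341. The log2 fold change was -0.28 without cKO 1 and also without WT 1. Insig2 had 15.8 and 15.1 CPM in cKO, against 12.5 and 13.5 CPM in WT, a log2 fold change of 0.24 (SE 0.087, edgeR adjusted p = 0.0839), with both cKO libraries above both WT libraries. The difference between the INSIG genes was not tested.

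**Figure D2:**
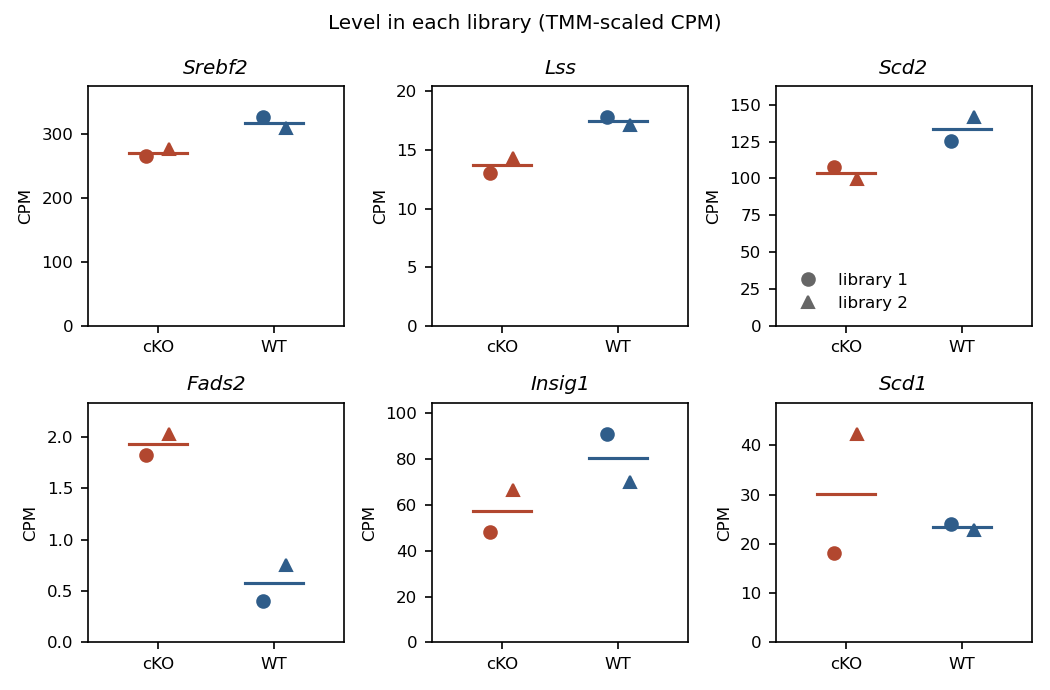
CPM of Srebf2, Lss, Scd2, Fads2, Insig1 and Scd1 in each library, cKO left of WT, with circles for library 1, triangles for library 2 and bars for group means. The axes start at 0. The groups are separate for the first 5 genes, while the cKO values of Scd1, 18.1 and 42.3 CPM, lie on either side of WT. Of all 31 genes, both cKO libraries were below both WT libraries for 6 (19.4%) and above for 8 (25.8%). The shares of all tested genes were 30.9% and 35.1%.

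In fatty acid synthesis, elongation and desaturation, Scd2 fell, Fads2 rose and 6 of 8 genes did not pass. Acly makes cytosolic acetyl-CoA from citrate, Acaca turns it into malonyl-CoA and Fasn builds palmitate. Acly measured 285 and 286 CPM in cKO, against 303 and 302 CPM in WT (log2 fold change -0.080, SE 0.045, edgeR adjusted p = 0.241). Acaca measured 38.1 and 40.2 CPM in cKO, against 35.1 and 34.5 CPM in WT, a log2 fold change of 0.17 (SE 0.059, edgeR adjusted p = 0.0763). The groups did not overlap for either gene, and Acaca passed with upper-quartile scaling (edgeR adjusted p = 0.0494). Of the 50-base stretches of Acaca, 30.4% also occur in other genes, so its counts are uncertain. Fasn had a log2 fold change of -0.031 (SE 0.073) with overlapping groups, and Elovl6, which elongates palmitate, of -0.13 (SE 0.14).

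The stearoyl-CoA desaturase genes make monounsaturated fatty acids. Scd2 had 108 and 99.3 CPM in cKO, against 125 and 141 CPM in WT, a log2 fold change of -0.37 (SE 0.078, edgeR adjusted p = 0.0184), and the groups did not overlap. The call held without cKO 1 (edgeR adjusted p = 0.0315) and without WT 1 (0.0268), and it ended without cKO 2 (0.0673) or WT 2 (0.0649). Scd1 had 18.1 and 42.3 CPM in cKO, against 24.0 and 22.8 CPM in WT, a log2 fold change of 0.38 (SE 0.36, edgeR adjusted p = 0.508). A single library set its direction: the log2 fold change was 0.85 without cKO 1 (edgeR adjusted p = 0.00517) and -0.38 without cKO 2 (0.0597). Summed CPM of 11 neutrophil markers were 584 and 1326 in cKO 1 and 2, against 64.5 and 185 in WT 1 and 2, and of 8 B cell markers 185 and 295 in cKO, against 149 and 179 in WT. Both sums, and that of the basophil and mast cell markers given below, were highest in cKO 2, as was Scd1. Of the 8 B cell markers 1 rose (12.5%, against 16.5% of all tested genes), and 0 did with RLE scaling or limma-voom. The part of these cell types in the value of Scd1 was not tested. Scd1 and Scd2 share few 50-base stretches with other genes, 4.56% and 3.97%.

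The desaturases of polyunsaturated fatty acids are encoded by the neighbouring genes Fads1 and Fads2. Fads2 had 53 and 70 counts in cKO, against 14 and 23 counts in WT, which is 1.82 and 2.03 CPM in cKO, against 0.403 and 0.755 CPM in WT. Fads2 rose 3.35-fold, or 1.75 as a log2 fold change (SE 0.33, edgeR adjusted p = 0.0127), the only change above 2-fold among the 31 genes. Both cKO libraries were above both WT libraries at this low level. The call ended without cKO 2 (edgeR adjusted p = 0.0507) or WT 1 (0.0571), and the log2 fold change was 1.35 without WT 1 and 2.24 without WT 2. With a filter of 5 CPM in 2 libraries the gene was not tested. Fads1 had 16.2 and 16.8 CPM in cKO, against 14.7 and 15.3 CPM in WT, a log2 fold change of 0.14 (SE 0.078, edgeR adjusted p = 0.245). In the same libraries the basophil and mast cell markers had summed CPM of 27.5 and 47.7 in cKO, against 4.35 and 8.01 in WT. All 11 neutrophil markers (100%) and 7 of 8 basophil and mast cell markers (87.5%) rose, against 16.5% of all tested genes. Without WT 1 these counts were 7 of 11 and 4 of 8. No marker of either list was at 0 in all libraries, but some WT counts were very low. Ly6g and Fcer1a each had 2 and 1 counts in WT 1 and 2. Both passed the main filter on low counts only through their cKO libraries. The calls of such genes are partly set by the filter, and the counts of markers that rose are no test. With the filter of 5 CPM in 2 libraries, 10 of the 11 neutrophil markers and 2 of the 8 basophil and mast cell markers were tested. Their part in the Fads2 value was not tested, and in bulk RNA a change in the share of a cell type and a change in RNA per cell cannot be told apart.

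Stard4, which carries sterols between membranes, had a log2 fold change of -0.10 (SE 0.14, edgeR adjusted p = 0.662). It measured 41.8 and 50.4 CPM in cKO, against 55.4 and 43.6 CPM in WT, with overlapping groups.

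Many of the sterol genes differed between the libraries of a group in a shared direction. Of the 31 genes, 27 were higher in cKO 2 than in cKO 1, against 49.7% of all tested genes, and 21 were higher in WT 1 than in WT 2, against 46.0%. All 17 enzymes of the mevalonate and sterol steps were higher in cKO 2 than in cKO 1. In WT, 13 of the 17 were higher in WT 1 than in WT 2, and Pmvk, Mvd, Nsdhl and Ebp were lower. The summed CPM of the 17 were 416 and 484 in cKO 1 and 2, against 480 and 433 in WT 1 and 2, so that the difference within either group was larger than that between the groups. For 5 of the 31 genes the log2 ratio was above 0.3 in both groups. The share of all tested genes above 0.3 in both was not computed, so 5 of 31 cannot be judged against it. Hsd17b7 had log2 ratios of 0.52 for cKO 2 over cKO 1 and 0.61 for WT 1 over WT 2, Cyp51 of 0.53 and 0.49, Insig1 of 0.46 and 0.38, Hmgcs1 of 0.40 and 0.33, and Mvk of 0.33 and 0.37. Larger ratios in one group alone were those of Scd1, 1.23 in cKO and 0.074 in WT, and Fads2, 0.15 in cKO and -0.90 in WT. Over the 31 genes the lowest of the 4 values lay in cKO 1 for 17 genes, and the highest lay in cKO 2 for 13 and in WT 1 for another 13.

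**Figure D3:**
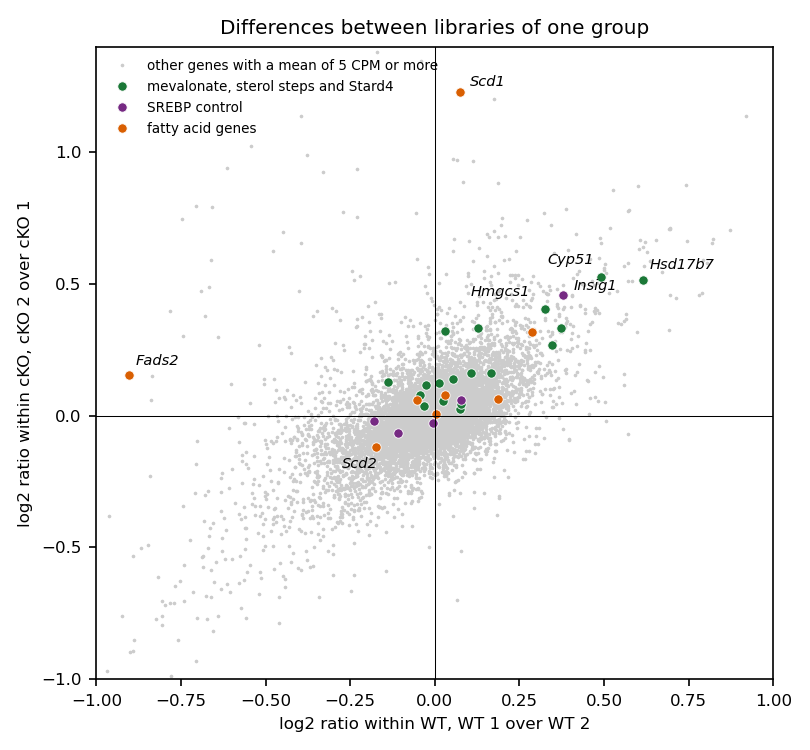
Log2 ratio of cKO 2 over cKO 1 (vertical) against that of WT 1 over WT 2 (horizontal) for the 31 genes, coloured by role, with other genes of at least 5 CPM in grey. Cyp51, Hsd17b7, Insig1 and Hmgcs1 lie far up and to the right, and Scd1 is high in cKO 2 alone. Grey points beyond the axes are not drawn.

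Across the 31 genes these ratios, here with a small count added (prior count 2), had a Spearman correlation of 0.68 and a Pearson correlation of 0.44. Across all 13861 tested genes the Pearson correlation was 0.32, and no Spearman correlation was computed. The orientation, which sets the sign, was chosen after the values were seen. With same-numbered libraries the Pearson correlation over all tested genes was -0.32. Genes are not independent replicates, and the values share depth and scaling. Libraries cKO 2 and WT 1 were also the deepest, with 34225385 and 35560491 counts, against 28442416 in cKO 1 and 30737750 in WT 2. Cell type markers differed between the libraries of a group as well, in more than one way. Of 12 macrophage and monocyte markers, 11 were higher in cKO 1 than in cKO 2 and 12 in WT 2 than in WT 1. All 9 Treg markers were higher in cKO 2 than in cKO 1 and in WT 1 than in WT 2, and of 12 pan T cell markers 11 and 9 were. Other lists were high in cKO 2 but not in WT 1. Of 8 B cell markers 8 were higher in cKO 2 than in cKO 1 and 0 in WT 1 than in WT 2, of 11 neutrophil markers 10 and 1, and of 8 basophil and mast cell markers 8 and 2. Of 14 proliferation genes 1 was higher in cKO 2 than in cKO 1 and 1 in WT 1 than in WT 2. Their part in the sterol genes was not tested. The direction of 15 of the 31 genes depended on which library was left out, while 7 stayed negative and 9 positive. The median log2 fold change of the 31 genes was 0.044 without cKO 1, -0.085 without cKO 2, 0.071 without WT 1 and -0.039 without WT 2. Each of these fits leaves 1 library in a group. Fewer of the 31 genes were called in each of them than with all 4 libraries, and fewer of all tested genes were called too.

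Neighbouring lipid pathways were read from the same fit. The list of sterol efflux, storage and LXR target genes is mixed, and only some of its genes act when sterols are in excess. In this list 5 of 11 tested genes fell while the other 6 missed the threshold, and all 11 log2 fold changes were negative (median -0.20). The 5 are 45.5% of the list, while 15.1% of all tested genes fell. All lists were chosen with earlier results of these data known, so the difference in shares is no test. Without cKO 2, 9 of the 11 were negative, and without WT 2, 10 were. Abca1, a cholesterol exporter, had 24.5 and 24.3 CPM in cKO, against 33.5 and 34.8 CPM in WT, a log2 fold change of -0.48 (SE 0.062, edgeR adjusted p = 0.00543). Abcg1, an exporter too, had a log2 fold change of -0.37 (SE 0.063, edgeR adjusted p = 0.00955). Both calls held without any single library, with edgeR adjusted p of at most 0.0418. The number that fell was 3 without cKO 1, 3 without cKO 2, 2 without WT 1 and 4 without WT 2. Pan T cell markers had a lower median, -0.33, in these libraries, and its part was not tested.

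Genes of SREBP processing and sterol sensing went both ways, with 3 of 10 higher and 3 lower, or 30% each, against 16.5% and 15.1% of all tested genes. Those that fell were Mbtps1, which encodes the site-1 protease that cuts SREBP in the Golgi, and the ubiquitin ligase genes Rnf145 and Rnf139. Mbtps1 had 125 and 125 CPM in cKO, against 158 and 156 CPM in WT, a log2 fold change of -0.34 (SE 0.046, edgeR adjusted p = 0.00611). Rnf145 had 153 and 166 CPM in cKO, against 240 and 222 CPM in WT (log2 fold change -0.54, SE 0.066, edgeR adjusted p = 0.00530), and Rnf139 a log2 fold change of -0.33. Without each library in turn all 3 remained called, with edgeR adjusted p of at most 0.0483. Of the 3 higher genes, Erlin1 had a log2 fold change of 0.47 and lost its call without cKO 1 (edgeR adjusted p = 0.0609) or WT 1 (0.0646). The number higher was 1 with RLE scaling and with DESeq2, and 0 without cKO 1 or WT 1, while 1 passed without cKO 2 or WT 2.

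**Figure D4:**
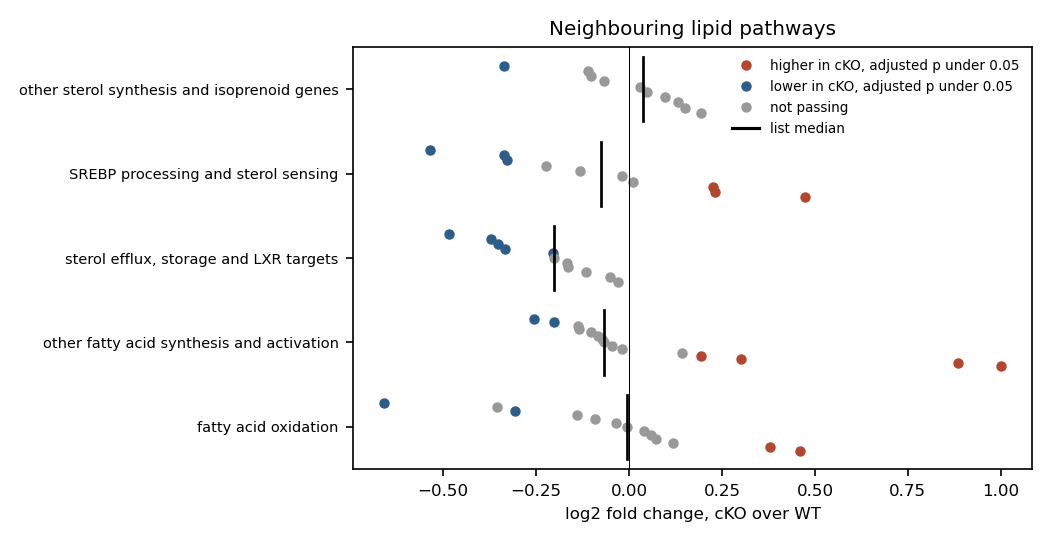
Log2 fold change, cKO over WT, of the tested genes in 5 neighbouring lipid gene lists, coloured by call, with list medians as bars. All 11 genes of sterol efflux, storage and LXR targets lie below 0, and the other lists spread to either side.

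In fatty acid oxidation 2 of 13 tested genes rose and 2 fell, 15.4% each, which is close to the 16.5% of all tested genes that rose and the 15.1% that fell, with a median of -0.0051 on the log2 scale. Acadm, the medium-chain dehydrogenase gene, had 40.7 and 40.8 CPM in cKO, against 29.3 and 30.0 CPM in WT (log2 fold change 0.46, SE 0.056, edgeR adjusted p = 0.00515). Acaa2, a thiolase gene, rose by 0.38 (SE 0.049), while Acadl, the long-chain dehydrogenase gene, fell by 0.66 (SE 0.14) and Acadvl by 0.31 (SE 0.053), all on the log2 scale. The calls of Acadm, Acaa2 and Acadl held without each library in turn. That of Acadvl ended without cKO 1 (edgeR adjusted p = 0.0559), cKO 2 (0.0526) or WT 1 (0.0558). The value of Acadl was -0.86 without WT 1 and -0.42 without WT 2. Among other genes of fatty acid synthesis and activation 4 of 15 rose (26.7%) and 2 fell (13.3%), but without cKO 1 or WT 1 none passed, and without cKO 2 or WT 2 only 1 did. Among 10 other genes of sterol and isoprenoid synthesis 1 fell (10%), Fntb, and it lost its call without any single library (edgeR adjusted p of 0.0741 to 0.0994).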

How the data were processed

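RNA of 4 libraries, 2 labelled cKO and 2 labelled WT, was analysed from 1 deposited table of raw read counts per gene. The submitters' processing notes name the build mm10. Which aligner, counter and annotation were used, and whether strand was, is not given in the sources used here. Total counts were 28442416 to 35560491, so 1 read was worth 0.0288 to 0.0344 CPM and a count of 0 allows up to 0.0864 to 0.103 CPM (3 counts, counting error only).

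Genes passing edgeR's filterByExpr (count 10, total 15) were tested with edgeR 4.0.16 (R 4.3.3), TMM scaling and the 2-sided quasi-likelihood test on group alone, adjusted by Benjamini-Hochberg at 0.05. The SE is the absolute log2 fold change over the square root of F, and 95% intervals use its t quantile. DESeq2 1.42.0 and limma-voom 3.58.1 were alternatives, beside other scalings, filters, a replicate block and leaving out each library. Lengths, exon overlaps and shared 50-base stretches came from GENCODE M21.

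The 31 genes and all lists were chosen with earlier results of these data known. Every one of the 31 could be named. Full values were given for called genes, for the 12 smallest p-values and for the SREBP control genes, and for other genes picked after their values were seen (Hmgcs1, Cyp51, Scd1, Stard4). Up to 4 genes of smallest p per neighbouring list could be named. Of 10 Treg markers 9 were in the table.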

Additional observations from a re-analysis of the deposited data

How the results depend on the processing

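The number of called genes was 4380. It was 2876 with DESeq2, 2292 with the replicate number as a block, and 1869 to 2747 without 1 library. Leaving out a library leaves 1 in its group, which is then assumed to vary like the other group. Of the 31 genes, the number that fell (3) was 0 with the block (edgeR, 3 at an unadjusted p under 0.05) and 1 to 1 without 1 library. The number that rose (1) was 2 with upper-quartile scaling, 0 with the filter of 5 CPM, and 0 to 2 without 1 library. Their median log2 fold change ran from -0.085 to 0.071 without 1 library.

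The labels do not say that replicate numbers pair the libraries, and deviations of same-numbered libraries had a correlation of -0.32. With the crossed pairing, chosen after seeing the data, 6713 genes were called, among them 6 of the 31 lower and 4 higher. Of all tested genes 23% were lower and 25.4% higher in this fit, more than the shares among the 31.

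Directions of genes that did not pass turned in places, and the cause was not tested. Scap had 0.025 with upper-quartile scaling and 0.0010 with the filter of 5 CPM. Without 1 library the log2 fold changes ran from -0.045 to 0.13 for Acat2, -0.32 to 0.078 for Hmgcs1, -0.30 to 0.078 for Mvk, -0.11 to 0.0027 for Mvd, -0.022 to 0.30 for Fdps, -0.11 to 0.0059 for Fdft1, -0.089 to 0.24 for Sqle, -0.47 to 0.090 for Cyp51 and -0.44 to 0.19 for Hsd17b7. They ran from -0.16 to 0.016 for Srebf1, -0.021 to 0.0093 for Scap, -0.12 to 0.065 for Fasn, -0.31 to 0.018 for Elovl6, -0.38 to 0.85 for Scd1 and -0.26 to 0.083 for Stard4. Over the 31 genes and their alternatives, 296 values kept direction and side of the threshold, 15 lost and 5 gained a call, and 24 turned.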
